A study of Homo sapiens with 9 samples.

Results

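The genes described here are 7 genes listed as autoregulating RNA-binding proteins, and autoregulation itself was not tested. PTBP1 (ENSG00000011304), PTBP2 (ENSG00000117569) and PTBP3 (ENSG00000119314) encode polypyrimidine tract-binding proteins, and TIA1 (ENSG00000116001) and TIAL1 (ENSG00000151923) are paralogs. The others are TARDBP (ENSG00000120948), which encodes TDP-43, and RBM39 (ENSG00000131051). All 7 were taken from a list of gene names. The list makes up 7 of the 58214 genes, and 154 of the 198775 transcripts, that could be matched to an annotation. The study asked what happens to the transcriptome when the RNA helicases DHX34 and UPF1, both factors of nonsense-mediated decay (NMD), are depleted. All libraries came from K562, a human line from a myeloid leukaemia that carries erythroid features (the sample titles spell it K562 and the cell line labels K652), and all cells received siRNA and were harvested 4 days after transfection. The control group SCR (treatment label WT) had non-targeting siRNA and the other groups had siRNA against DHX34 (a commercial pool) or UPF1, with 3 poly(A)-selected RNA-seq libraries in each group and 9 in all. The replicates are separate biological samples by the study's methods, all from a single cell line.

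NMD degrades transcripts whose stop codon lies well upstream of the last exon junction, and UPF1 is its central ATPase. Many splicing regulators use this pathway: when the protein is abundant it directs its own pre-mRNA into an isoform with an early stop, either by skipping an exon whose length is not a multiple of a codon or by including a so-called poison exon, and the isoform is degraded. An isoform of this kind is then visible mainly when NMD is impaired, which is why coding, NMD-annotated and noncoding isoforms were followed separately for each gene.

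Each library held between 73478797 and 103625443 expected read counts. DHX34 was at 53.5% of its SCR level (mean TPM 9.98 against 18.66) in its own knockdown, and UPF1 at 46.9% (23.07 against 49.2 TPM), with no overlap between libraries. The 10 erythroid marker genes were detected in every library, from 12.0 TPM upwards, while CD8A, MS4A1, KRT5 and PDGFRA were at 0. HBG2, a fetal globin, was lower in the UPF1 knockdown (mean 7470 TPM) than in SCR (12548) and in the DHX34 knockdown (11609). Over all genes, NMD-annotated transcripts took 2.34 to 2.41% of TPM in SCR, 2.41 to 2.47% after DHX34 knockdown and 3.15 to 3.20% after UPF1 knockdown, and noncoding transcripts of any kind 12.9 to 13.2%, 14.3 to 15.0% and 14.8 to 15.2%. In bulk RNA such as this, fewer cells of a kind and less RNA per cell cannot be told apart. The part of these library differences in the results below was not tested. The median gene lay 0.161 (DHX34 knockdown) and 0.204 (UPF1 knockdown) above SCR on the log2(TPM + 0.5) scale. Differences of whole genes are therefore given on CPM, counts scaled to library size and composition by TMM, which removes such a shift, and TPM, which corrects for transcript length, is used for levels and for shares within a gene.

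In SCR the gene level per length was highest for PTBP1, at 327 ± 12.1 TPM (SD, n = 3), and lowest for PTBP2, at 7.68 ± 0.739 TPM. Between them lay TARDBP (229.5 ± 7.62), RBM39 (120.3 ± 4.28), TIAL1 (71.9 ± 3.93), PTBP3 (51.9 ± 1.65) and TIA1 (34.9 ± 0.949). This order was the same in all 3 groups, and no neighbours in it overlapped in any group. PTBP2 is the neuronal member of its family and PTBP1 the one used by most other cells, and the PTBP1 to PTBP2 order was the same in every library.

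**Figure D1:**
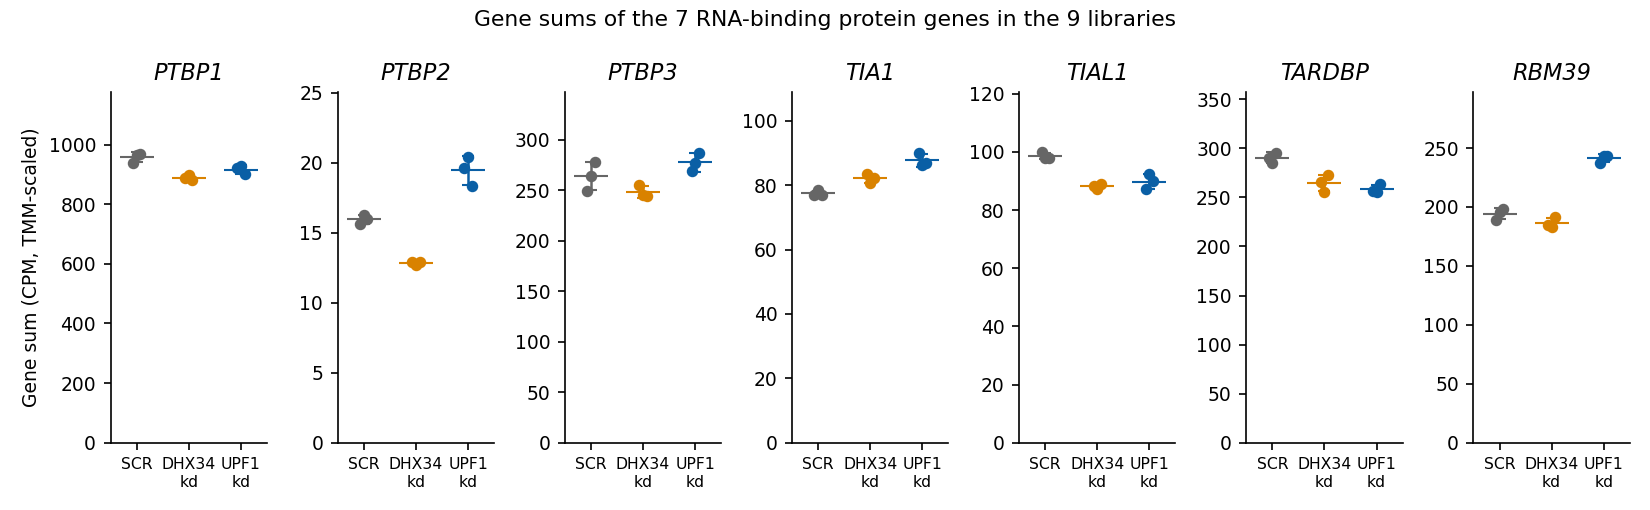
Gene sums of the 7 genes in each library, in TMM-scaled CPM, by group (SCR, DHX34 knockdown, UPF1 knockdown), with points for libraries, lines for group means and bars for SD (n = 3). RBM39 in the UPF1 knockdown (237 to 243) lies above the other 6 libraries (183 to 198), and PTBP2 is lowest in the DHX34 knockdown and highest in the UPF1 knockdown.

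After UPF1 knockdown, RBM39, PTBP2 and TIA1 rose and TARDBP and TIAL1 fell in their gene sums, while PTBP1 and PTBP3 did not pass the threshold. RBM39, a U2AF-related splicing factor, was at 189, 195 and 198 CPM in SCR replicates 1 to 3 and at 237, 243 and 243 CPM in the UPF1 knockdown. The groups did not overlap, and the log2 fold change was 0.31 (95% interval 0.245 to 0.366, edgeR quasi-likelihood test, adjusted p = 4.86e-06). PTBP2 was at 15.64, 16.25 and 16.002 CPM in SCR and at 19.6, 20.4 and 18.4 CPM in the UPF1 knockdown. Every knockdown library lay above every SCR library (log2 fold change 0.28, interval 0.158 to 0.397, edgeR adjusted p = 0.00151). TIA1, a U-rich RNA-binding protein that promotes exon inclusion and nucleates stress granules, was at 77.1, 78.4 and 76.9 CPM in SCR and at 90.1, 86.3 and 86.8 CPM after UPF1 knockdown. Again the groups stood apart (0.17, interval 0.0991 to 0.244, edgeR adjusted p = 0.00131). The spans of TIA1 and C2orf42, introns included, share 39172 bases on the same strand. Overlap of their exons was not measured, and only reads from shared exon sequence could not be assigned with certainty.

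TARDBP, a regulator of splicing that binds UG-rich RNA, was at 290, 285 and 296 CPM in SCR and at 257, 256 and 263 CPM in the UPF1 knockdown. The knockdown libraries were all below the SCR libraries (log2 fold change -0.18, interval -0.234 to -0.116, edgeR adjusted p = 0.000244). The spans of TARDBP and MASP2, introns included, overlap on opposite strands over 8520 bases. The strandedness of the libraries is not given in the sources used here, so reads of the 2 genes may not be separable where their exons overlap, which was not measured. TIAL1, the paralog of TIA1, was at 99.9, 97.8 and 98.0 CPM in SCR and at 87.1, 92.5 and 89.8 CPM after UPF1 knockdown, again without overlap (-0.14, interval -0.212 to -0.0714, edgeR adjusted p = 0.0038). The TIA1 and TIAL1 sums thus moved in opposite directions. On log2(TPM + 0.5), TARDBP and TIAL1 lay above SCR by 0.0871 and 0.123, which is below the shift of 0.204 of the median gene, so their direction holds only relative to that shift. PTBP1 (log2 fold change -0.07, interval -0.127 to -0.0174, edgeR adjusted p = 0.0372) and PTBP3 (0.06, interval -0.0177 to 0.147, edgeR adjusted p = 0.204) were not called. Of the 7 genes 5 were called, 3 up and 2 down, where 25.3% of all 17184 genes tested were called, 12.4% up and 12.9% down. On gene TPM sums all 7 genes did not overlap SCR, against 54% of all genes, and all 7 lay above SCR on that scale. The RBM39 and TARDBP calls held with any 1 library left out. The TIAL1 call was lost without any 1 of the 6 libraries (log2 fold change -0.161 to -0.123, edgeR adjusted p up to 0.0245), the PTBP2 call without any library other than UPF1 knockdown replicate 3 (0.244 to 0.283, up to 0.0103), and the TIA1 call without SCR replicate 1, SCR replicate 3 or UPF1 knockdown replicate 1 (0.15 to 0.163, up to 0.00979). With counts scaled by transcript length 2 of the 7 genes were called, and PTBP2, TARDBP and TIAL1 were not (edgeR adjusted p = 0.0289, 0.0139 and 0.17).

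After DHX34 knockdown, PTBP2 fell and none of the other genes passed the threshold. PTBP2 was at 12.9, 12.7 and 12.9 CPM in the DHX34 knockdown, below the 15.6 to 16.2 CPM of SCR. The 2 groups did not overlap, and the log2 fold change was -0.31 (interval -0.444 to -0.185, edgeR adjusted p = 0.00294). TIAL1 was at 88.4, 87.3 and 88.9 CPM, below all SCR libraries, and lay just outside the threshold (log2 fold change -0.16, edgeR adjusted p = 0.00564). TARDBP was at 265, 256 and 273 CPM (-0.14, edgeR adjusted p = 0.0159) and PTBP1 at 889, 896 and 879.7 CPM, against 937, 966 and 969.6 CPM in SCR (-0.11, edgeR adjusted p = 0.0426). RBM39 (-0.06, interval -0.137 to 0.0149), PTBP3 (-0.09, interval -0.184 to 0.0033) and TIA1 (0.08, interval 0.00375 to 0.162) had edgeR adjusted p-values of 0.232, 0.15 and 0.118. The single call stands against 10.4% of 17004 genes called, 5.54% up and 4.86% down, so 1 of 7 is near that background. On gene TPM sums 4 of 7 genes did not overlap SCR, against 44.4% of all genes. These were PTBP3, TIA1, TARDBP and RBM39, all above SCR on a scale where the median gene also lay above SCR. The TPM sums of PTBP2 overlapped SCR. The PTBP2 call was lost under the replicate block (edgeR adjusted p = 0.013) and when any library other than DHX34 knockdown replicate 3 was left out (log2 fold change -0.33 to -0.305, edgeR adjusted p up to 0.0136). DESeq2 called 4 of the 7 genes.

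**Figure D2:**
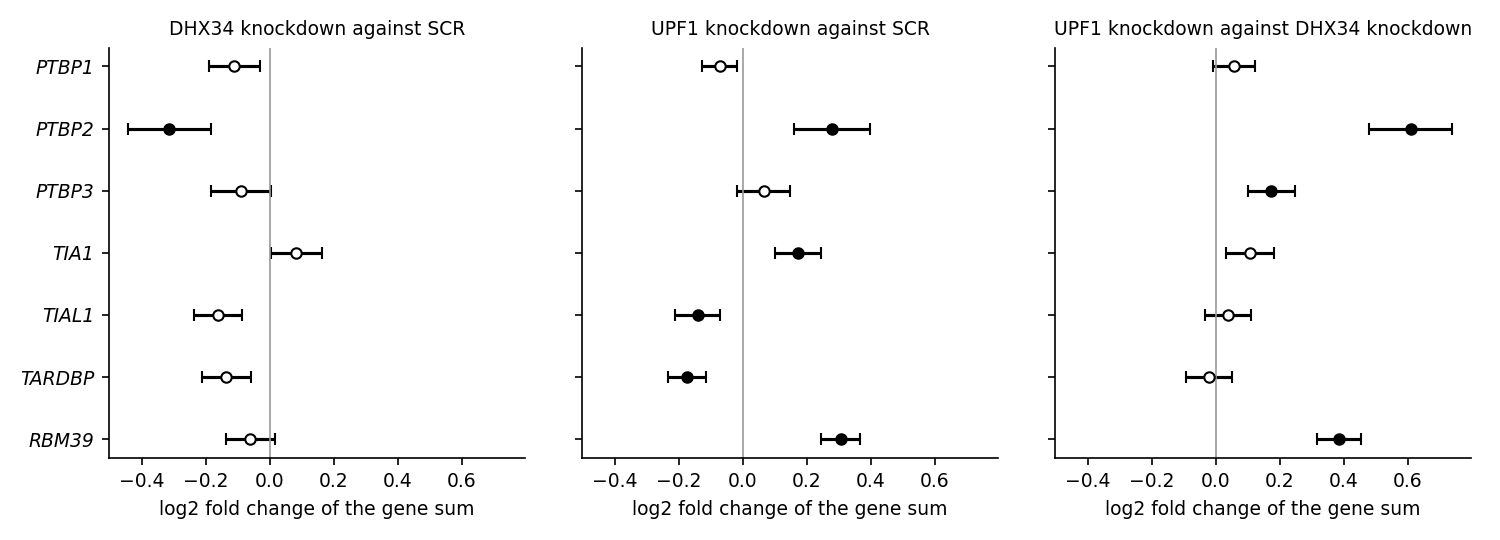
Log2 fold changes of the 7 gene sums in the 3 comparisons, with 95% intervals from the edgeR fit and filled points for genes called at an adjusted p of at most 0.005. PTBP2 is called in all 3 comparisons, with opposite signs against SCR in the 2 knockdowns (-0.31 and 0.28).

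The knockdowns were also compared with each other, since passing a threshold in 1 of them does not show a difference. PTBP2 was higher in the UPF1 knockdown than in the DHX34 knockdown by a log2 fold change of 0.61 (interval 0.479 to 0.739, edgeR adjusted p = 2.03e-05), with the libraries apart. RBM39 was higher by 0.38 (interval 0.316 to 0.452, edgeR adjusted p = 5.12e-06). PTBP3, the paralog expressed in haematopoietic cells, was at 255, 245 and 245 CPM in the DHX34 knockdown and at 269, 277 and 287 CPM in the UPF1 knockdown, with SCR between them at 249.8, 264 and 278 CPM. It was higher in the UPF1 knockdown (0.17, interval 0.0987 to 0.247, edgeR adjusted p = 0.0025), a call that was lost with length-scaled counts (edgeR adjusted p = 0.116), under the replicate block (0.00959) and without any 1 library other than DHX34 knockdown replicate 3 (log2 fold change 0.149 to 0.193, up to 0.0144). PTBP1, TIA1, TIAL1 and TARDBP did not pass, with edgeR adjusted p-values of 0.184, 0.0325, 0.439 and 0.662. In this comparison 3 of 7 genes were called, all up, against 17.4% of 17435 genes in either direction, 9.89% up and 7.47% down. Gene TPM sums did not overlap for 5 of 7 genes, against 40.4% of all genes.

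The genes differed in the share of their level that fell to NMD-annotated transcripts. Of the 154 transcripts, 78 reached a mean of 1 TPM in at least 1 group: 37 coding, 15 annotated as NMD targets and 26 noncoding, which includes transcripts with retained introns. NMD-annotated transcripts took most of the gene level for RBM39 (29.5 ± 1.38% in SCR), then TIAL1 (13.5 ± 1.73%), PTBP2 (11.8 ± 2.08%), TARDBP (9.16 ± 1.34%), TIA1 (6.41 ± 2.15%) and PTBP1 (0.557 ± 0.158%). For PTBP3 the annotation held no NMD transcript. In this order TIAL1, PTBP2, TARDBP and TIA1 each overlapped with the next in their library values, while RBM39 and PTBP1 stood apart.

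**Figure D3:**
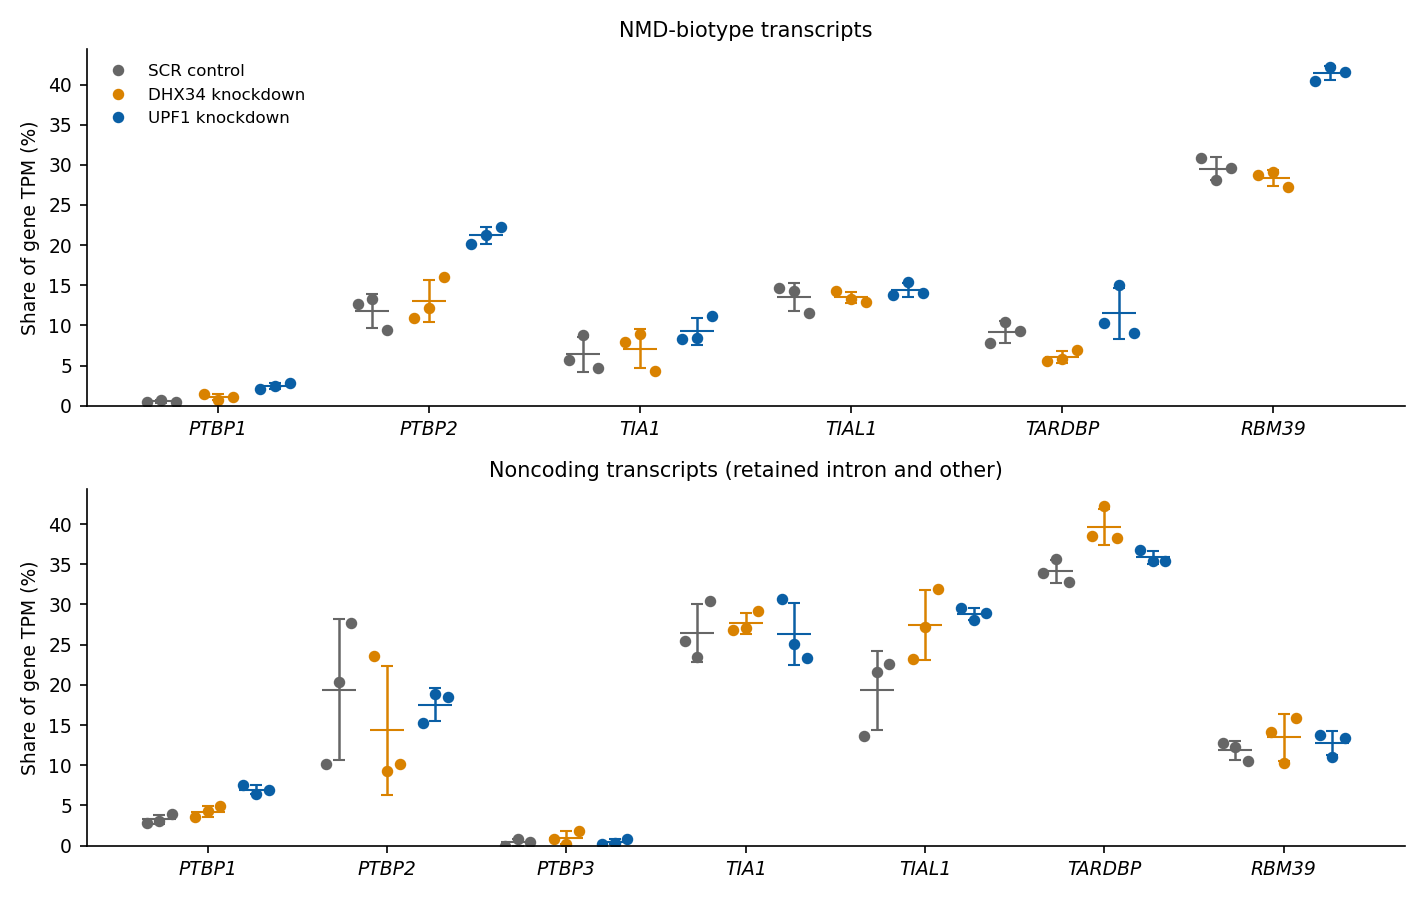
Percent of each gene's TPM in NMD-annotated transcripts and in noncoding transcripts by library and group, with points for libraries, lines for group means and bars for SD (n = 3 per group). The NMD share of RBM39 lies at 40.5 to 42.2% in the UPF1 knockdown and at 27.2 to 30.9% in the other 6 libraries.

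After UPF1 knockdown the NMD share did not overlap SCR for PTBP1, PTBP2 and RBM39, which is 3 of 6 genes, against 38.8% of 3730 genes. In the DHX34 knockdown it did not overlap for PTBP1 (higher) and TARDBP (lower), 2 of 6 against 16.1% of 3582 genes, and between the knockdowns for PTBP1, PTBP2, TARDBP and RBM39, 4 of 6 against 35.6% of 3786 genes. The NMD to coding ratio, on log2((TPM + 0.1)/(TPM + 0.1)) and tested with limma over all genes, had no member called in any comparison. Unadjusted p-values under 0.05 were found for 0 of 6 genes after DHX34 knockdown, 3 of 6 after UPF1 knockdown and 4 of 6 between the knockdowns. The limma fit called 0%, 0.0268% and 0% of all genes in these comparisons. All 6 ratios were higher after UPF1 knockdown, with a median log2 difference of 0.72 against 0.47 over all genes tested. After DHX34 knockdown 4 of 6 were higher, with a median of 0.12 against 0.02. For the noncoding to coding ratio limma called 0 of 7 genes in each comparison, with 0, 3 and 1 unadjusted p-values under 0.05, and 0.0143%, 0.0142% and 0.014% of all genes called. The noncoding share did not overlap for 2 of 7 genes in each comparison, where 16.7%, 25.3% and 18.5% of genes did not overlap.

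RBM39 holds a 73-base poison exon at chr20:35740525-35740597 (GRCh38, minus strand). Between the same neighbouring exons it is carried by 7 transcripts, all annotated as NMD targets. The exon is printed from its first base to the stop codon it brings into frame, in capitals, because its inclusion set the UPF1 knockdown apart from all other libraries. In RBM39-216 this stop lies 1424 bases before the last exon junction. A 72-base exon at chr20:35734186-35734257, which followed a different course, is printed in the same way, and its stop lies 1420 bases before the last junction in RBM39-212.
RBM39 73-base exon: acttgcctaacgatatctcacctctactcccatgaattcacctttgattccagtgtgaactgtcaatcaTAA
RBM39 72-base exon: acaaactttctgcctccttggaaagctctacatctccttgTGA

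Inclusion of the 73-base exon, as the percent of the TPM of including and skipping transcripts, was 19.6, 21.7 and 20.6 in SCR. It was 21.0, 19.2 and 21.6 after DHX34 knockdown and 40.1, 39.9 and 40.1 after UPF1 knockdown. The UPF1 knockdown libraries all lay above the other 6, while the DHX34 knockdown and SCR libraries were intermixed. The mean difference from SCR was 19.4 points for the UPF1 knockdown and -0.03 points for the DHX34 knockdown. The exact permutation test, two-sided, gives p = 0.1 for any complete separation of 3 against 3 libraries, which is the smallest p of this design and is not repeated below. In a limma fit over the cassette exons of all genes, added after the data were seen, the log2 ratio of including to skipping transcripts differed by 1.36 after UPF1 knockdown (interval 0.958 to 1.76, adjusted p = 0.0396), short of the threshold. The including transcripts of this fit and of the percentages take in RBM39-206, which had expression listed only in the UPF1 knockdown. No value without it is given. After DHX34 knockdown the same ratio differed by -0.00361 (interval -0.447 to 0.44), which bounds the difference but does not show that the groups were equal.

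**Figure D4:**
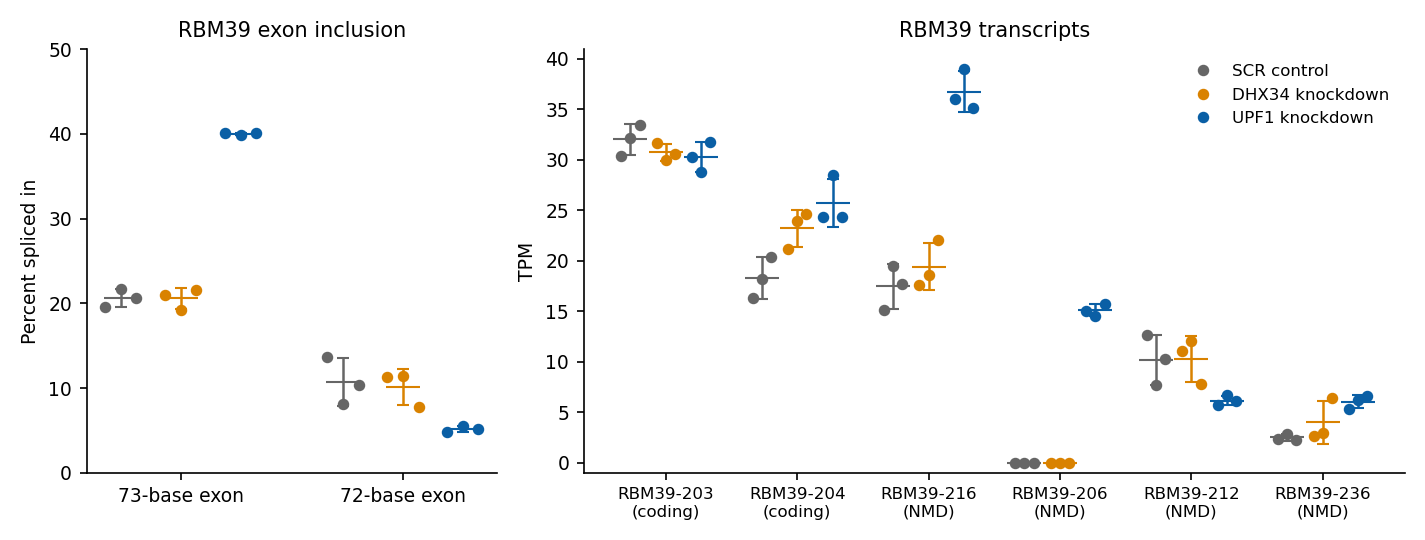
Left, inclusion of the 73-base and 72-base exons of RBM39 in percent of including and skipping TPM; right, TPM of 6 RBM39 transcripts (points are libraries, long lines group means, bars SD, n = 3 per group). The 73-base exon is at 39.9 to 40.1% in the UPF1 knockdown and at 19.2 to 21.7% in the other 6 libraries, and RBM39-206 is at 0 outside the UPF1 knockdown.

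The 7 transcripts with the exon summed to 18.9, 22.6 and 21.6 TPM in SCR, to 22.3, 21.4 and 25.2 TPM after DHX34 knockdown and to 57.0, 59.5 and 56.5 TPM after UPF1 knockdown. Most of this came from RBM39-216 and RBM39-206, full-length NMD isoforms that share their exons but for a longer form of 1 exon and their ends. RBM39-216 was at 15.1, 19.5 and 17.7 TPM in SCR, 17.6, 18.6 and 22.0 TPM after DHX34 knockdown and 36.03, 38.98 and 35.14 TPM after UPF1 knockdown. It rose after UPF1 knockdown (log2 fold change 0.83, interval 0.616 to 1.04, edgeR adjusted p = 0.00332) and was at -0.01 after DHX34 knockdown (interval -0.248 to 0.236, edgeR adjusted p = 0.99). The call was lost without any 1 of the 6 libraries (log2 fold change 0.732 to 0.877, edgeR adjusted p up to 0.0212) and under the replicate block (0.02). RBM39-206 was listed at 0 in all 6 SCR and DHX34 knockdown libraries and at 15.1, 14.5 and 15.7 TPM after UPF1 knockdown. It passed the filter on low counts through the UPF1 knockdown alone, so neither a test nor a fold is given for it, and reads shared by near-identical isoforms are divided by estimation, so that a listed 0 need not be an absent transcript.

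RBM39-212, the more abundant of the 2 measured NMD isoforms with the 72-base exon, was at 12.6, 7.71 and 10.2 TPM in SCR, 11.05, 12.04 and 7.741 TPM after DHX34 knockdown and 5.72, 6.66 and 6.06 TPM after UPF1 knockdown. The UPF1 knockdown libraries were the lowest of the 9, without passing the test against SCR (log2 fold change -0.98, interval -1.45 to -0.515, edgeR adjusted p = 0.0263). The other, RBM39-207, also holds the 73-base exon and is named after its values were seen. It was at 0.036, 0.312 and 0 TPM in SCR, 0.355, 0.049 and 0.254 TPM after DHX34 knockdown and 0.689, 1.006 and 0.668 TPM after UPF1 knockdown, so that its highest libraries were those in which RBM39-212 was lowest. Inclusion of the 72-base exon was 13.7, 8.12 and 10.3% in SCR, 11.3, 11.4 and 7.72% after DHX34 knockdown and 4.77, 5.50 and 5.16% after UPF1 knockdown. The 2 early-stop exons of RBM39 thus stood on opposite sides of SCR in the UPF1 knockdown. RBM39-236, an incomplete NMD transcript with a 156-base exon, was at 2.51 ± 0.330 TPM in SCR, 4.00 ± 2.11 after DHX34 knockdown and 6.03 ± 0.637 after UPF1 knockdown (n = 3 each). It did not pass the test after UPF1 knockdown (1.03, edgeR adjusted p = 0.0173). A 138-base exon was included in 2.37 ± 0.85, 1.14 ± 0.29 and 2.59 ± 0.53% in SCR, DHX34 and UPF1 knockdown, and a 66-base exon in 83.0 ± 2.32, 83.7 ± 0.80 and 87.1 ± 0.59%.

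Summed over all its NMD-annotated transcripts, RBM39 was at 35.7, 34.9 and 35.9 TPM in SCR, 36.6, 37.3 and 40.2 TPM after DHX34 knockdown and 70.0, 75.1 and 71.7 TPM after UPF1 knockdown. Its coding transcripts were at 65.2, 73.8 and 72.7 TPM, at 72.8, 77.5 and 84.2 TPM and at 79.1, 83.0 and 77.9 TPM in the same order. The NMD level of the UPF1 knockdown lay far from the other 6 libraries, while the coding level overlapped that of the DHX34 knockdown. The NMD share was 41.4 ± 0.896% after UPF1 knockdown, 29.5 ± 1.38% in SCR and 28.4 ± 1.02% after DHX34 knockdown. On the ratio scale the UPF1 knockdown differed from SCR by 0.84 (interval 0.544 to 1.14, limma adjusted p = 0.0124), a value above that of 69.2% of the genes tested. The DHX34 knockdown differed by -0.05 (interval -0.379 to 0.282, limma adjusted p = 0.94), and the knockdowns from each other by 0.89 (interval 0.627 to 1.15, limma adjusted p = 0.0108). With only the 7 transcripts that hold the 73-base exon, chosen after the data were seen, the UPF1 difference was 1.27 and the DHX34 difference -0.02, still not called (limma adjusted p = 0.00731 and 0.98). RBM39-206, with expression listed only in the UPF1 knockdown, is among these 7 and among the NMD transcripts summed above. Of RBM39's TPM, 23.2% fell to transcripts whose annotation is incomplete at an end.

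PTBP1 and PTBP2 of the PTB family have NMD transcripts of the opposite kind, which skip a 34-base exon and so shift the frame. PTBP1 protein represses this exon in its own transcript and the matching exon in PTBP2. The exons are printed in capitals with the 60 intron bases before them, since PTB binds pyrimidine-rich RNA there: PTBP1 at chr19:807809-807902, PTBP2 at chr1:96806359-96806452 (both plus strand) and PTBP3 at chr9:112231380-112231473 (minus strand), all GRCh38.
PTBP1 34-base exon: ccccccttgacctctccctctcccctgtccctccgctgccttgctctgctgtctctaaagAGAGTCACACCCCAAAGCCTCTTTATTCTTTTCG
PTBP2 34-base exon: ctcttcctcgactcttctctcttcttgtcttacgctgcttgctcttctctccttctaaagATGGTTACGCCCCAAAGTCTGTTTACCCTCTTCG
PTBP3 34-base exon: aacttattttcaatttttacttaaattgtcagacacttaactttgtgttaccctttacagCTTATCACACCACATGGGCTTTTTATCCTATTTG

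The exons were alike in 25 of 34 bases (73.5%) between PTBP1 and PTBP2, in 22 (64.7%) between PTBP1 and PTBP3 and in 21 (61.8%) between PTBP2 and PTBP3. The intron bases were 80.0, 81.7 and 63.3% pyrimidine in PTBP1, PTBP2 and PTBP3. The motif TCTT, searched on the transcript strand with overlaps allowed, occurred 6 times in the PTBP2 window and was not found in the other windows, and 0.0851% of 36425 cassette exons of all genes held it 6 times or more in the 60 bases before them. A match is a description of letters and not a binding site. When the exon is skipped, PTBP1 and PTBP2 read into the next exon and stop after 27 bases, 361 bases before the last junction, in stretches alike in 21 of 27 bases (77.8%). They are printed with the stop codon in capitals, from chr19:808360-808386 and chr1:96806866-96806892.
PTBP1 after skipping: gcgtctacggtgacgtgcagcgcgTGA
PTBP2 after skipping: gtgtttatggagatgtgcagcgtgTGA

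PTBP1 included its 34-base exon almost fully. Inclusion was 99.56, 99.23 and 99.45% in SCR, 98.47, 99.16 and 98.87% after DHX34 knockdown and 97.68, 97.32 and 96.90% after UPF1 knockdown. The 3 groups were ordered in this way without overlap, by -0.58 points for the DHX34 knockdown and -2.11 points for the UPF1 knockdown against SCR. The skipping transcripts, PTBP1-207 and PTBP1-218, are its 2 NMD-annotated ones and summed to 1.32, 2.46 and 1.71 TPM in SCR, 4.78, 2.63 and 3.67 TPM after DHX34 knockdown and 8.0, 9.24 and 10.4 TPM after UPF1 knockdown. These are low values for so abundant a gene, and the NMD share of PTBP1 was 0.557 ± 0.158%, 1.09 ± 0.327% and 2.45 ± 0.345% in the 3 groups (n = 3 each), each group above the one before. On the ratio scale the difference from SCR was 2.18 after UPF1 knockdown (interval 1.40 to 2.97, limma adjusted p = 0.0125), above that of 97.1% of the genes tested, and 0.945 after DHX34 knockdown (interval -0.012 to 1.90, limma adjusted p = 0.54). With a pseudocount of 0.5 or 1 TPM in place of 0.1 the UPF1 difference was 1.96 or 1.74 and was called (limma adjusted p = 0.00335 and 0.0011).

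A retained-intron transcript, PTBP1-215, was at 4.44, 5.26 and 7.17 TPM in SCR, 4.29, 8.58 and 6.85 TPM after DHX34 knockdown and 21.2, 17.6 and 19.6 TPM after UPF1 knockdown. All UPF1 knockdown libraries lay above the others, and the edgeR adjusted p of 0.00744 (log2 fold change 1.54, interval 1.03 to 2.05) missed the threshold that limma on TPM passed (adjusted p = 0.00194). The noncoding share of PTBP1 was 6.93 ± 0.555% after UPF1 knockdown against 3.29 ± 0.552% in SCR, and its noncoding to coding ratio differed by 1.16 (limma adjusted p = 0.102). Without PTBP1-215 the ratio between the knockdowns changed sign, from 0.776 to -0.283 (limma adjusted p = 0.783). A 78-base exon of PTBP1, present in some coding transcripts and absent from others, was included at 44.13, 44.24 and 44.02% in SCR, 46.2, 46.0 and 46.7% after DHX34 knockdown and 47.7, 46.7 and 45.1% after UPF1 knockdown. Both knockdowns lay above SCR by 2.18 and 2.37 points, with the knockdowns overlapping each other.

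PTBP2 had only 4 annotated coding and 2 NMD transcripts, and its NMD level rested on 71.5 to 296.6 expected counts a library. Inclusion of its 34-base exon was 79.4, 74.4 and 69.2% in SCR, 74.3, 80.2 and 77.3% after DHX34 knockdown and 70.4, 66.9 and 62.9% after UPF1 knockdown. SCR overlapped with both knockdowns, while the knockdowns did not overlap each other (difference of UPF1 from DHX34 knockdown -10.6 points). The limma fit over cassette exons did not call this difference (log2 ratio -0.716, interval -1.25 to -0.18, adjusted p = 0.205). The skipping side also holds 2 noncoding transcripts with low values. PTBP2-210 had means of 0.986, 0.192 and 1.17 TPM in SCR, DHX34 and UPF1 knockdown, and PTBP2-208 of 0, 0.416 and 0 TPM. PTBP2-207, the NMD transcript that lacks the exon, was at 0.864, 0.946 and 0.767 TPM in SCR, 0.778, 0.647 and 1.02 TPM after DHX34 knockdown and 2.04, 2.46 and 2.33 TPM after UPF1 knockdown. The UPF1 knockdown libraries were apart from the rest, with log2 fold changes of 1.15 against SCR (interval 0.714 to 1.59, edgeR adjusted p = 0.0123) and 1.42 against the DHX34 knockdown (interval 0.883 to 1.96, edgeR adjusted p = 0.0192), neither called. The NMD share of the gene was 21.2 ± 1.06% after UPF1 knockdown, 11.8 ± 2.08% in SCR and 13.1 ± 2.61% after DHX34 knockdown, and the ratio differed from SCR by 0.93 (interval 0.513 to 1.36, limma adjusted p = 0.0231) and 0.07 (interval -0.433 to 0.567, limma adjusted p = 0.944). The coding level of PTBP2, 5.27, 5.38 and 5.10 TPM in SCR, was 4.63, 4.84 and 4.88 TPM after DHX34 knockdown and 7.14, 7.16 and 6.23 TPM after UPF1 knockdown, so the gene sum and the coding level lay on the same side of SCR in each knockdown.

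PTBP3 had no NMD-annotated transcript, and the tables held no transcript that skips its 34-base exon, so that event could not be measured. A 170-base exon near its start was included in 92.0, 90.5 and 91.8% in SCR, in 85.0, 82.9 and 83.7% after DHX34 knockdown and in 87.0, 86.0 and 86.4% after UPF1 knockdown. The groups did not overlap, and here the DHX34 knockdown lay farther from SCR (-7.53 points) than the UPF1 knockdown did (-4.94 points). In the limma fit over cassette exons neither differed from SCR at the threshold (adjusted p = 0.284 and 0.137). The knockdowns did not differ from each other there either (log2 ratio 0.293, interval -0.134 to 0.721, limma adjusted p = 0.494). The skipping transcript PTBP3-203, annotated as coding, was at 3.38, 4.47 and 3.84 TPM in SCR, 7.55, 8.58 and 8.36 TPM after DHX34 knockdown and 7.17, 8.01 and 7.95 TPM after UPF1 knockdown. Both knockdowns lay above every SCR library, with log2 fold changes of 0.88 (interval 0.619 to 1.15, edgeR adjusted p = 0.0194) and 0.73 (interval 0.462 to 0.989, edgeR adjusted p = 0.0105). Neither was called by edgeR, and DESeq2 gave adjusted p-values of 9.67e-09 and 5.43e-09. The main coding transcript, PTBP3-205, was at 41.2 ± 2.25, 42.2 ± 0.709 and 49.0 ± 1.27 TPM in the 3 groups (n = 3).

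**Figure D5:**
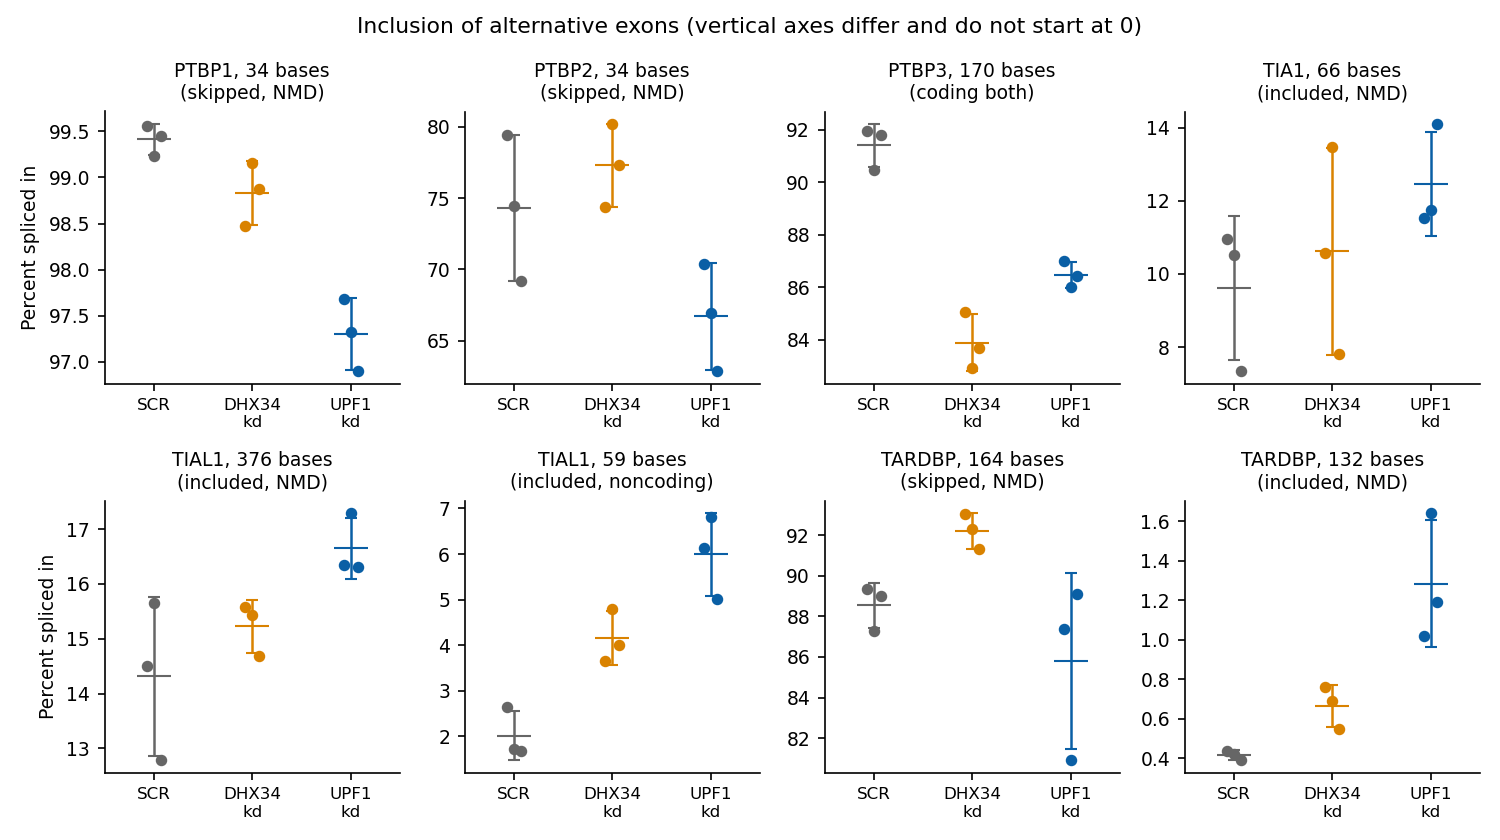
Inclusion in percent of 8 alternative exons of PTBP1, PTBP2, PTBP3, TIA1, TIAL1 and TARDBP, with the class of the isoform that skips or includes each exon (points are libraries, lines group means, bars SD, n = 3 per group). The vertical axes differ and do not start at 0, so a wide gap can be a small difference: the PTBP1 panel spans 96.90 to 99.56%.

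TIA1 and TIAL1 each have an early-stop exon at the same place, which ends after 37 bases in alignable sequence: TIA1 at chr2:70225357-70225393 and TIAL1 at chr10:119580810-119580846 (both minus strand). The stretches agree in 25 of 37 bases (67.6%) and are printed to show that relatedness, with the stop codon in capitals.
TIA1 exon to stop: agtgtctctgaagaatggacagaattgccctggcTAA
TIAL1 exon to stop: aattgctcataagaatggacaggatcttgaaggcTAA

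The TIA1 exon of 66 bases was included in 10.96, 10.53 and 7.34% in SCR, 10.6, 13.5 and 7.81% after DHX34 knockdown and 11.5, 11.8 and 14.1% after UPF1 knockdown. The UPF1 knockdown lay above SCR by 2.85 points with a narrow gap, and the DHX34 knockdown overlapped both. TIA1-210, its NMD transcript, was at 1.92, 3.10 and 1.69 TPM in SCR, 3.30, 3.59 and 1.94 TPM after DHX34 knockdown and 4.20, 4.00 and 5.41 TPM after UPF1 knockdown, and was not called after UPF1 knockdown (log2 fold change 0.79, interval 0.111 to 1.46, edgeR adjusted p = 0.157). The NMD ratio of TIA1 differed from SCR by 0.60 (interval -0.07 to 1.27, limma adjusted p = 0.189) after UPF1 knockdown. A 33-base exon that distinguishes coding TIA1 isoforms was included in 52.6 ± 4.30%, 58.5 ± 3.62% and 52.5 ± 4.28% in SCR, DHX34 and UPF1 knockdown (n = 3), with overlapping libraries. The rise of the TIA1 gene sum after UPF1 knockdown was thus carried by no transcript that was called on its own.

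The TIAL1 exon, 376 bases long in TIAL1-213, was included in 14.5, 15.7 and 12.8% in SCR, 15.6, 15.4 and 14.7% after DHX34 knockdown and 16.4, 17.3 and 16.3% after UPF1 knockdown. The UPF1 knockdown was above the other groups by 2.34 and 1.42 points. TIAL1-213 itself was at 8.83 ± 0.889 TPM in SCR and 9.97 ± 0.588 TPM after UPF1 knockdown, with a log2 fold change of -0.07 on the CPM scale (interval -0.273 to 0.127, edgeR adjusted p = 0.704). The main coding transcript TIAL1-205 was at 42.8, 41.4 and 43.9 TPM in SCR, 39.2, 38.7 and 37.9 TPM after DHX34 knockdown and 36.7, 37.9 and 37.8 TPM after UPF1 knockdown. It fell after UPF1 knockdown (log2 fold change -0.44, interval -0.551 to -0.319, edgeR adjusted p = 0.00381) and was not called after DHX34 knockdown (-0.31, interval -0.455 to -0.161, edgeR adjusted p = 0.0618). The UPF1 call was lost without any 1 library (-0.491 to -0.409, edgeR adjusted p up to 0.0257) and under the replicate block (0.0298). TIAL1-205 is 1401 bases in the tables and 3827 in GENCODE 44, and the level per length rests on the shorter form. The NMD share of TIAL1 overlapped between all groups, and its noncoding share did not overlap between SCR (13.7, 21.6 and 22.7%) and either the DHX34 knockdown (23.3, 27.2 and 31.9%) or the UPF1 knockdown (29.5, 28.0 and 29.0%). The noncoding ratio differed by 0.71 (interval -0.012 to 1.44, limma adjusted p = 0.517) and 0.85 (interval 0.225 to 1.47, limma adjusted p = 0.181), and SCR replicate 1, where TIAL1-206 was listed at 0, was the lowest library. TIAL1-207, a noncoding transcript with a 59-base exon, was at 1.16 ± 0.323, 2.28 ± 0.329 and 3.39 ± 0.572 TPM in the 3 groups (n = 3) without overlap, and was not called (UPF1 knockdown against SCR 1.29, edgeR adjusted p = 0.0428).

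The TPM of the main NMD transcript of TARDBP was lower in every DHX34 knockdown library than in any library of the other groups. Neither difference was called by edgeR. This transcript, TARDBP-203, skips a 164-base coding exon at chr1:11016844-11017007 and reads into a stop after 17 bases of the next exon (chr1:11018733-11018749, plus strand), 295 bases before the last junction. The stretch is printed with its stop in capitals, since this isoform carries most of the NMD share.
TARDBP after skipping: gtcaagaaagatctTAA

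Inclusion of the 164-base exon was 89.4, 87.3 and 89.0% in SCR, 93.1, 92.3 and 91.3% after DHX34 knockdown and 87.4, 80.9 and 89.1% after UPF1 knockdown. The DHX34 knockdown lay above SCR in every library (3.67 points), while the UPF1 knockdown overlapped SCR and was spread widely by replicate 2. TARDBP-203 was at 15.3, 18.4 and 16.1 TPM in SCR, 9.76, 10.3 and 13.2 TPM after DHX34 knockdown and 18.4, 28.0 and 16.1 TPM after UPF1 knockdown. The DHX34 knockdown was below all others, with a log2 fold change of -0.74 against SCR (interval -1.02 to -0.471, edgeR adjusted p = 0.0306) that was not called. The UPF1 against the DHX34 knockdown was 0.85 (interval 0.326 to 1.38, edgeR adjusted p = 0.0848), also not called. UPF1 against SCR was 0.08 (interval -0.415 to 0.571, edgeR adjusted p = 0.886). The NMD share of TARDBP was 9.16 ± 1.34% in SCR, 6.10 ± 0.745% after DHX34 knockdown and 11.5 ± 3.12% after UPF1 knockdown (n = 3 each). The ratio differed from SCR by -0.51 (interval -1.06 to 0.0315, limma adjusted p = 0.555) after DHX34 knockdown, by 0.41 (interval -0.278 to 1.10, limma adjusted p = 0.363) after UPF1 knockdown and by 0.93 between the knockdowns (interval 0.276 to 1.57, limma adjusted p = 0.0718). A minor NMD transcript with a 132-base exon, TARDBP-204, was at 0.860 ± 0.055, 1.52 ± 0.204 and 2.73 ± 0.584 TPM in the 3 groups without overlap, and UPF1 against SCR was 1.41 (interval 0.808 to 2.01, edgeR adjusted p = 0.0182).

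Most of the noncoding TPM of TARDBP came from TARDBP-219, a 584-base transcript at 74.0, 83.0 and 73.7 TPM in SCR, 89.6, 101 and 96.4 TPM after DHX34 knockdown and 89.2, 83.5 and 82.0 TPM after UPF1 knockdown. The DHX34 knockdown libraries were higher than all SCR libraries on this scale, with 0.14 on the CPM scale (interval -0.00874 to 0.297, edgeR adjusted p = 0.36). Accordingly the noncoding share of TARDBP was 39.7 ± 2.22% after DHX34 knockdown, 34.1 ± 1.41% in SCR and 35.9 ± 0.840% after UPF1 knockdown. The coding transcript TARDBP-202 was at 47.6, 46.0 and 46.6 TPM in SCR and 44.6, 43.9 and 44.8 TPM after UPF1 knockdown, without overlap, and fell in the test (log2 fold change -0.32, interval -0.414 to -0.23, edgeR adjusted p = 0.00467). This call too was lost without any 1 library (-0.368 to -0.312, edgeR adjusted p up to 0.0302) and under the replicate block (0.0274).

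Of the 154 transcripts, 91, 97 and 98 passed the filter on low counts in the DHX34, UPF1 and direct comparisons. RBM39-206, at 0 throughout SCR and the DHX34 knockdown, is left out of the counts that follow, as are all transcripts at 0 in every library of a group. After DHX34 knockdown edgeR called 0 of 91, with 15 unadjusted p-values under 0.05, against 0.0333% of all transcripts (0.0266% up and 0.00665% down), where DESeq2 called 6 and limma 0. After UPF1 knockdown it called 3 of 96, RBM39-216 up and TIAL1-205 and TARDBP-202 down, against 2.47% (0.897% up and 1.57% down), so the count is near that background. Between the knockdowns it called 1 of 97, RBM39-216 up (0.86, edgeR adjusted p = 0.00252), against 1.02% (0.71% up and 0.306% down). That call was lost under the replicate block (edgeR adjusted p = 0.0395) and without any 1 library other than DHX34 knockdown replicate 3 (log2 fold change 0.813 to 0.906, up to 0.019). DESeq2 called 16 of the 96 and 8 of the 97. Transcript TPM did not overlap for 21 of 91, 43 of 96 and 35 of 97 transcripts in the 3 comparisons, against 26.7%, 36.7% and 27.4% of all transcripts. Over cassette exons, limma called 0 of 29, 30 and 30 in the DHX34, UPF1 and direct comparisons, with 4, 8 and 8 unadjusted p-values under 0.05, against 0%, 0.0119% and 0% of all exons. Inclusion did not overlap for 7 of 29, 14 of 30 and 15 of 30 exons, against 15.2, 24.9 and 22.3% of all.

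The other genes of these pathways were counted on gene sums by list, lists that were chosen with earlier results of these data known. Of 7 genes for NMD factors that feed back on NMD, all 7 rose after UPF1 knockdown, where 12.4% of all genes rose, and edgeR called 0 of 7 after DHX34 knockdown, near its background of 10.4%. SMG1, the kinase of UPF1, rose by 0.63, UPF2 by 0.51 and SMG5 by 0.51 on the log2 scale, with edgeR adjusted p-values of 1.16e-06, 2.8e-06 and 2.7e-07, and the list median was 0.42 against 0.02 over all genes. Of 29 other genes reported to be autoregulated through unproductive isoforms, 1 rose (TRA2B) and 14 fell after UPF1 knockdown, among them RPS3 (-0.33), SNRPB (-0.30) and RPL12 (-0.29), where 12.4% of all genes rose and 12.9% fell. After DHX34 knockdown 6 of the 29 fell, among them CLK1 (-0.41), RBM3 (-0.38) and RPL12 (-0.33), against 4.86% of all genes. The medians were -0.133 and -0.152 against 0.0159 and 0.018 over all genes. Between the knockdowns 7 were higher after UPF1 knockdown, led by CLK4 (0.53), TRA2B (0.44) and RBM3 (0.415), and 1 lower, against 9.89% and 7.47% of all genes. On the NMD ratio the list of 25 measured genes had a median of 1.2 on the log2 scale after UPF1 knockdown against 0.47 over all genes, and none was called by limma.

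Of 25 partners and paralogs of the 7 proteins, such as U2AF1, a subunit of the splice-site recognition factor, 3 fell after DHX34 knockdown: U2AF1 (-0.38), HNRNPA1 (-0.34) and SFPQ (-0.19). After UPF1 knockdown 1 rose (MBNL1) and 8 fell, led by SNRPC (-0.34), HNRNPA1 (-0.29) and PUF60 (-0.28). Between the knockdowns CELF1 was higher (0.32) and PUF60 lower (-0.20) in the UPF1 knockdown. The list medians were -0.0521, -0.0531 and 0.00215 in these comparisons, against 0.018, 0.0159 and 0.00888 over all genes. Of 11 stress granule partners of TIA1 and TIAL1, PABPC1 fell after DHX34 knockdown (-0.18), 5 fell after UPF1 knockdown, led by USP10 (-0.23), G3BP2 (-0.20) and PABPC1 (-0.17), and G3BP2 (-0.24) and EIF4G1 (-0.19) were lower in the UPF1 than in the DHX34 knockdown. The medians were -0.00305, -0.115 and 0.0174. Over all genes 4.86%, 12.9% and 7.47% fell in the 3 comparisons, and 12.4% and 9.89% rose in those with the UPF1 knockdown.

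Genes whose level followed each member most closely over the 9 libraries were sought among 10057 genes, by Pearson's r of log2 CPM. The 9 libraries fall into 3 groups, so these values are a description and carry no test. RBM39 was most like LINC02610 (0.998) and LETMD1 (0.995), TARDBP most like MT-CO2 (0.993) and MT-ATP6 (0.989), and TIA1 most like ARPC4-TTLL3 (0.992) and SCYL3 (0.991). PTBP1 was most like GP1BB (0.991) and CEP89 (0.96), PTBP2 most like GYPE (0.987) and CALB1 (0.985), PTBP3 most like LINC00534 (0.971) and MAP2K5 (0.97), and TIAL1 most like DEXI (0.977) and PSMC1 (0.97).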

How the data were processed

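Poly(A)-selected RNA-seq libraries of K562 cells were analysed, 3 per group. The authors quantified reads with salmon (with GC bias correction) against the Ensembl 93 cDNA set of GRCh38, and the deposited tables give an expected count and a TPM value per transcript and library. Strandedness is not given in the sources used here. Tables of the authors' own comparisons (sleuth tests of transcripts and genes and SUPPA2 splicing values) were not used.

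Transcripts were matched by identifier to GENCODE 44, a later annotation, which gave gene, biotype and exons for 97.91% of 203027 transcripts. Expected counts were summed by gene and rounded, and fitted for each pair of groups with edgeR 4.0.16 (TMM scaling, minimum count 10 in filterByExpr, quasi-likelihood test, R 4.3.3). Class ratios, log2((class TPM + 0.1)/(coding TPM + 0.1)), were fitted with limma 3.58.1 for genes with a mean coding level of at least 1 TPM and class level of at least 0.1 TPM. P-values were adjusted by Benjamini-Hochberg over all features tested, and a call needed an adjusted p of at most 0.005. Inclusion of cassette exons and shares of gene TPM were compared by exact permutation tests. DESeq2 1.42.0 was an alternative. All 7 genes were named; their transcripts were named from a mean of 1 TPM in any group or when called, their exons where groups differed by 5 points or where NMD and coding transcripts were separated, and for each gene the 2 most similar genes. Transcripts and exons meeting the rule are given individually where the text turns on them and otherwise by counts. The members, lists and alternatives were chosen with earlier results of these data known. The fits were tested on data simulated from the UPF1 knockdown and SCR libraries. At the threshold, edgeR called 79% of 1.5-fold and 92% of 2-fold changes of gene sums. For transcripts it called only 4% and 14% of such changes, and the limma ratio fit called 35% of 4-fold changes. A transcript or ratio that was not called may therefore still have changed. Correlations of same-numbered deviations from the group means were below 0.1 for at least 1 pair in each comparison. Between UPF1 knockdown and SCR they were positive (0.279, 0.0302 and 0.257), so pairing by replicate number was not excluded. The main fits left the number out, and a replicate block was run as an alternative.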

Additional observations from a re-analysis of the deposited data

Results flagged for a closer look

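For 4 results the effects of the 2 knockdowns, which share the SCR libraries, differed when the knockdowns were tested against each other. The gene sum of PTBP2 was higher in the UPF1 than in the DHX34 knockdown by a log2 fold change of 0.609, that of RBM39 by 0.384 and that of PTBP3 by 0.173, each in 3 of 3 libraries. The transcript RBM39-216 was higher by 0.863.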

How the results depend on the processing

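Of 771 values recomputed under an alternative, counts aside, 662 kept their direction and their side of the threshold, 64 lost the call, 12 gained it, 4 moved by more than the spread and 29 changed sign; the cause was not tested. Gene sums: the number of members called after DHX34 knockdown (1) was 4 at an adjusted p of 0.05, 4 with DESeq2, 2 with DESeq2 size factors, 2 with no filter, 2 in 1 fit over 9 libraries, 0 with length-scaled counts, 0 with limma on TPM, and 0 to 1 with a library left out; after UPF1 knockdown (5) it was 2 with length-scaled counts and 2 to 4 with a library left out. On log2(TPM + 0.5), DHX34 against SCR changed sign for PTBP1 (0.0543), PTBP3 (0.169), TIAL1 (0.0694), TARDBP (0.104) and RBM39 (0.157), and UPF1 against SCR for PTBP1 (0.206), TIAL1 (0.123) and TARDBP (0.0871), where the median gene lay at 0.161 and 0.204; with length-scaled counts PTBP3 (0.0132) and RBM39 (0.000501) changed sign after DHX34 knockdown. Removing a trend with gene length, an alternative chosen after seeing the data, as were those for single transcripts, gave PTBP1 -0.171 and PTBP3 -0.213 (DHX34) and -0.128 and -0.0365 (UPF1).

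NMD ratios called (0): UPF1 against SCR 3 at 0.05, 1 with a pseudocount of 0.5 and 2 with 1; between the knockdowns 2 at 0.05 and 1 with a pseudocount of 1. Transcripts called after DHX34 knockdown (0) were 2 at 0.05 and 6 with DESeq2. After UPF1 knockdown (4) they were 15 at 0.05, 17 with DESeq2, 7 with limma and 0 to 1 with a library left out. Between the knockdowns (2) they were 5 at 0.05, 9 with DESeq2 and 1 to 2 with a library left out. The counts with the UPF1 knockdown take in RBM39-206, which was at 0 in SCR and the DHX34 knockdown. Leaving out RBM39-206 (chosen after seeing the data) gave 3 after UPF1 knockdown, 16 with DESeq2, 6 with limma and 0 with any library left out. Between the knockdowns it gave 1, and 8 with DESeq2. Ratios that changed sign were RBM39 NMD after DHX34 knockdown (CPM 0.0605), TIA1 (CPM 0.143) and TIAL1 (-0.0729) noncoding between the knockdowns, PTBP2 noncoding (-0.051) and PTBP3 noncoding (-0.152 and -0.224) after UPF1 knockdown with other pseudocounts, TARDBP without TARDBP-219 (0.269) and PTBP1 without PTBP1-215 (-0.283). With single libraries left out, ranges that crossed 0 were, for NMD after DHX34 knockdown, PTBP2 -0.0589 to 0.173, TIA1 -0.0449 to 0.481, RBM39 -0.0953 to 0.0114 and, for noncoding ratios, PTBP2 -0.357 to 0.443 (UPF1), PTBP3 -0.489 to 0.721 (UPF1), TIA1 -0.0984 to 0.181 (UPF1), TIA1 -0.208 to 0.037 (between the knockdowns), TIAL1 -0.0157 to 0.3 (between the knockdowns).

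Replicate block: deviations of same-numbered samples had r of -0.0413, -0.246 and -0.389 between DHX34 knockdown and SCR. The values were 0.279, 0.0302 and 0.257 between UPF1 knockdown and SCR, and -0.188, 0.129 and -0.188 between the knockdowns. These values do not settle whether the numbers pair the samples. With the number as a replicate block, 0 gene sums were called after DHX34 knockdown and 0 transcripts after UPF1 knockdown or between the knockdowns; PTBP2 (adjusted p = 0.013), TIAL1 (0.00556) and PTBP3 (0.00959) lost their calls, and the other gene calls did not change. Depth was at least 73478797 expected counts a library; the error of the isoform estimates was not carried into the tests.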
